A study of Mus musculus with 6 samples.

Results

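The 8 genes Adm, Vegfa, Egln3, Pfkfb3, Ankrd37, Ccng2, Bnip3 and Ndrg1 belong to the transcripts that mammalian cells make more of when oxygen is short, and Hif1a encodes the factor that drives most of that response. They were looked up by exact gene name, and all 9 were found among the 12826 genes of the deposited table. The group was chosen on earlier readings of this same anterior against posterior contrast, so the differences of these 9 genes are given as a description, with no test. RNA was measured by Smart-seq2, a full-length method for small inputs, in 6 libraries from 3 individual mouse ETX-embryos called A, B and C. ETX-embryos are embryo-like structures that self-assemble in culture from 3 kinds of stem cell (embryonic, trophoblast, and XEN, of the extraembryonic endoderm). All 6 libraries come from structures that carry a GFP reporter for T (Brachyury), a mesoderm gene, and no treatment was applied, per the labels. After removal of the trophoblast compartment, the remaining compartment was split along its length. The GFP-negative piece is the anterior sample of an embryo and the GFP-positive piece its posterior sample, giving 3 anterior and 3 posterior libraries. The labels give neither the oxygen level of the culture nor the number of cells in a piece.

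The response works through protein stability. In cells with enough oxygen, prolyl hydroxylases of the EGLN family mark the HIF-1α protein, which is encoded by Hif1a, and the VHL ubiquitin ligase then sends it for degradation. When oxygen falls the protein persists, pairs with ARNT and binds short DNA elements near its target genes, whose core letters are ACGTG or GCGTG. The RNA of Hif1a is therefore not a readout of the activity of the factor. In the mouse embryo around gastrulation, before blood circulates, HIF-dependent genes act in vessel and placenta formation and in the use of glucose.

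The core letters were searched in windows of 300 bases around the RefSeq transcription starts (250 before and 50 after, build GRCm38.p6), on both strands. Of the 9 genes, 8 had an entry (Adm, Pfkfb3, Egln3, Ankrd37, Vegfa, Ccng2, Bnip3 and Hif1a). Pfkfb3 and Vegfa had 2 starts each. The stretches below are a selection of the matches outside annotated exons, 1 or 2 per gene, with Hif1a included. They are shown so that the letters can be read beside the expression values, each on the strand of its gene, 5′ to 3′, with the searched letters or their reverse complements in capitals. They lie at chr7:110627555-110627583 and chr7:110627591-110627619 (Adm, plus strand), chr2:11502126-11502154 (Pfkfb3, second start, minus strand), chr12:54204087-54204115 (Egln3, minus strand), chr8:46000072-46000100 and chr8:45999987-46000015 (Ankrd37, minus strand), chr7:138909598-138909626 (Bnip3, minus strand), and chr12:73907721-73907749 and chr12:73907785-73907813 (Hif1a, plus strand).
Adm, 90 bases before the start: tttagaagcaagCACGCtggagagggagg
Adm, 54 bases before the start: ggcaaatctgacCACGCccaccgtccgcc
Pfkfb3, 53 bases before the second start: acccttctctcCACGTGaaagggggctgg
Egln3, 229 bases before the start: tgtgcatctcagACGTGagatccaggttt
Ankrd37, 241 bases before the start: cccagcagtACGTGcctagctcggctcgc
Ankrd37, 155 bases before the start: cttcactgcgCACGCGTGctgcggccgcc
Bnip3, 117 bases before the start: gcgCACGCgccgCACGTGccaCACGCtcc
Hif1a, 135 bases before the start: acacagacaagCACGTGagcggggcagct
Hif1a, 70 bases before the start: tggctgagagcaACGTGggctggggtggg

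The window of Bnip3 was the densest, with 2 matches of ACGTG and 3 of GCGTG, a palindromic CACGTG counting on both strands. The first window of Vegfa held neither core, and the matches of its second lay in a coding exon. The matches of Ccng2 and of the first Pfkfb3 start lay in annotated exons of those genes. ACGTG was present in 19.6% and GCGTG in 32.4% of all 32851 RefSeq windows, and 63.2% of the 9843 windows of genes in the fit held at least 1 of the 2 cores. A match of 5 letters is thus common in windows of this length, and it describes letters, not binding.

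Levels are given in FPKM, fragments per kilobase scaled to library size, a unit that allows levels of different genes to be compared per length. Differences are anterior minus posterior within an embryo, on the log2(FPKM + 1) scale of the deposited table, which understates changes of genes at low levels. The fit took the 10914 genes whose level averaged 1 FPKM or more, and all 9 genes were among them. The 2 pieces of an embryo were kept as a pair.

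The libraries differed in depth along the same line as the groups. Between 9335 and 11082 genes were above 0 in the anterior libraries and between 10260 and 12141 in the posterior ones. Relative to anterior A, the other anterior libraries were 1.41 and 1.43 times as deep, and the posterior libraries 1.56 to 2.84 times. Over all fitted genes the median difference was -0.43 (-0.91, -0.02 and -0.17 in embryos A, B and C). The level of the median gene of each library, used for centring below, differed by -0.99, 0.07 and -0.55. The median gene thus sat lower in the anterior piece of embryos A and C and about level in B. T followed the labels in embryos A and B. In embryo C it ran against them, since the library labelled anterior C held 42.5 FPKM of T and the one labelled posterior C listed it at 0. The 3 most abundant streak markers followed the labels there: Mixl1 (0 against 30.4 FPKM in anterior and posterior C), Wnt3 (0.896 against 70.1 FPKM) and Fgf8 (0 against 57.9 FPKM). Anterior A was the library least like the others, with Spearman correlations of 0.57 to 0.66 across genes. No gene passed an adjusted p of 0.05 in limma's moderated test with Benjamini-Hochberg adjustment (0% of genes, smallest adjusted p 0.211).

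All 8 induced genes were higher in the anterior piece of each of the 3 embryos, 24 of 24 within-embryo differences, although for Ndrg1 in embryo C the difference was only 0.003. In the table as a whole, 8.25% of genes were higher in the anterior piece in 3 of 3 embryos and 21.5% were lower. For 6 of the 8 (Adm, Vegfa, Egln3, Pfkfb3, Ankrd37 and Ccng2) every anterior library lay above every posterior library, a pattern that 3.77% of all genes share. The genes were selected on this contrast, so these counts only restate that choice. The median difference of the 8 was 3.20, against -0.43 for all genes. In these bulk pieces fewer cells that express a gene and less RNA per cell cannot be told apart.

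**Figure D1:**
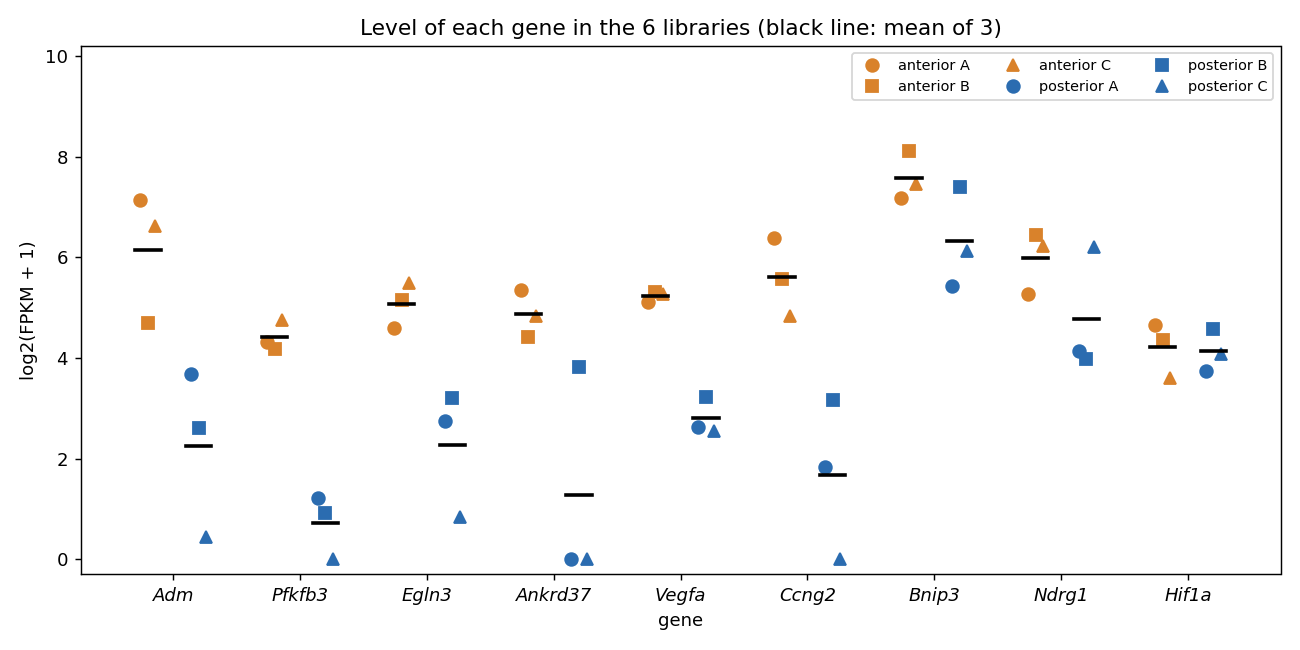
Vertical axis, level in log2(FPKM + 1), with 1 point per library and the 9 genes side by side, for anterior (orange) and posterior (blue) pieces, with marker shapes for the 3 embryos and black lines at the means of 3. Vegfa has the tightest groups, Bnip3 and Ndrg1 overlap between groups, and Hif1a lies between 3.61 and 4.65 in all 6 libraries.

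Among the secreted products, Adm encodes adrenomedullin, a vasodilator peptide. It stood at 139, 25.0 and 98.3 FPKM in the anterior pieces of embryos A, B and C, against 11.7, 5.11 and 0.369 FPKM in the matching posterior pieces. Anterior B was the low library of its group and still lay above every posterior library. The anterior level was 11.9, 4.89 and 266 times the posterior level, where the last ratio rests on a posterior level under 1 FPKM. The difference was 3.91 ± 2.08 (SD over 3 embryos, SE 0.98).

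Vegfa encodes the main growth factor of blood vessels. Its anterior levels were 33.7, 38.5 and 37.3 FPKM in embryos A, B and C, against posterior levels of 5.14, 8.38 and 4.82 FPKM. The anterior piece held 6.56, 4.60 and 7.76 times the posterior level, the most even ratio among the induced genes. The difference of 2.43 ± 0.33 (SD, n = 3; SE 0.83) had the smallest spread over embryos of the 8. The anterior libraries spanned 0.19 in log2, the posterior libraries 0.69, and the gap between the groups was 1.89.

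Egln3 encodes an oxygen-sensing prolyl hydroxylase that both marks HIF-α proteins and is itself made when they act. It was measured at 23.2, 34.4 and 43.8 FPKM in the anterior and at 5.74, 8.20 and 0.790 FPKM in the posterior pieces of A, B and C. Embryos A and B were close to each other, with ratios of 4.04 and 4.20, and embryo C was apart at 55.5, again over a posterior level under 1 FPKM. The mean difference was 2.81 ± 1.59 (SD, n = 3; SE 0.96).

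Pfkfb3 makes fructose 2,6-bisphosphate, the activator of phosphofructokinase in glycolysis. Anterior levels of 19.0, 17.0 and 26.1 FPKM in A, B and C stood against 1.32 and 0.889 FPKM in posterior A and B, and the gene was listed at 0 in posterior C. The ratio was 14.5 in embryo A and 19.1 in embryo B, and none is given for C. With 2.96 in log2, Pfkfb3 had the widest gap between the lowest anterior and the highest posterior library of the 9 genes, and its difference was 3.71 ± 0.91 (SD, n = 3; SE 0.98).

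Ankrd37 encodes an ankyrin repeat protein known as a HIF-1 target. It stood at 39.9, 20.3 and 27.6 FPKM in anterior A, B and C, at 13.1 FPKM in posterior B, and was listed at 0 in posterior A and C. Embryo B differed by only 0.60, a ratio of 1.56, while A and C differed by 5.35 and 4.84. The mean difference of 3.60 ± 2.61 (SD, n = 3; SE 1.15) had the largest spread of the 8 and rests on embryos A and C. In the GENCODE M21 annotation Ankrd37 (chromosome 8, 45996902 to 46005707) overlaps Ufsp2 and Lrp2bp on the opposite strand, and the sources used here do not say that strand was used in counting. Ufsp2 ran the other way, with a difference of -1.51 ± 1.93 (SD, n = 3).

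Ccng2 encodes cyclin G2, an unconventional cyclin linked to cell cycle arrest. Levels were 82.9, 46.6 and 27.5 FPKM in the anterior (A, B, C) and 2.56 and 8.02 FPKM in posterior A and B, and posterior C listed it at 0. The ratio was 32.4 in embryo A and 5.81 in embryo B. Its difference of 3.93 ± 1.33 (SD, n = 3; SE 0.94) was the largest mean of the 8, close to that of Adm.

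Bnip3 encodes a protein of the outer mitochondrial membrane that acts in mitophagy. It was the most abundant of the 9 genes, at 144, 276 and 173 FPKM in the anterior (A, B, C) and at 42.0, 167 and 69.2 FPKM in the posterior pieces. Posterior B lay above anterior A, so the groups overlapped, while the within-embryo ratios were 3.43, 1.65 and 2.51. The difference was 1.26 ± 0.52 (SD, n = 3; SE 0.64).

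Ndrg1 encodes a stress-responsive cytoplasmic protein that hypoxia is known to induce. It reached 37.7, 86.4 and 73.4 FPKM in the anterior (A, B, C) and 16.6, 14.8 and 73.2 FPKM in the posterior pieces. Embryos A and B showed ratios of 2.27 and 5.85, and in embryo C both pieces were at the same level. The mean difference of 1.20 ± 1.23 (SD, n = 3; SE 0.78) was thus smaller than its spread over embryos.

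Hif1a itself showed no such pattern. It stood at 24.1, 19.6 and 11.2 FPKM in the anterior (A, B, C) and at 12.4, 22.7 and 15.8 FPKM in the posterior pieces. The anterior piece was higher in embryo A and lower in B and C, with differences of 0.91, -0.20 and -0.47 and a mean of 0.08 ± 0.73 (SD, n = 3; SE 0.83). Relative to the median gene of each library the differences were 1.90, -0.27 and 0.08, with a mean of 0.57. The sign of the mean rests on anterior A: it was -0.33 without embryo A and -0.14 with no pairing and without anterior A alone.

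The order of levels differed between the groups. In the anterior pieces the means ran, in log2(FPKM + 1), from Bnip3 (7.58 ± 0.48) through Adm (6.15 ± 1.28), Ndrg1 (5.98 ± 0.62), Ccng2 (5.60 ± 0.78), Vegfa (5.23 ± 0.10), Egln3 (5.08 ± 0.45), Ankrd37 (4.87 ± 0.47) and Pfkfb3 (4.42 ± 0.31) to Hif1a (4.21 ± 0.54; SD, n = 3 for each). Neighbours in that order differed by less than the larger of their SDs, apart from the step from Bnip3 to Adm, which just exceeded it. In the posterior pieces Bnip3 (6.32 ± 1.00) and Ndrg1 (4.78 ± 1.25) were followed by Hif1a (4.13 ± 0.41). The other six lay below Hif1a there, at posterior means between 2.80 ± 0.38 for Vegfa and 0.71 ± 0.63 for Pfkfb3. Bnip3 to Ndrg1, and Hif1a to Vegfa, were the steps beyond the larger SD in the posterior order.

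Ranks within a library do not depend on how libraries were scaled. The 8 induced genes stood at a mean percentile of 88.1, 82.4 and 84.5 among all genes of anterior A, B and C, and of 44.0, 56.6 and 39.0 in the posterior libraries. Adm, for example, went from the 96.8, 76.4 and 92.3 percentile of the anterior libraries to the 60.0, 45.2 and 26.9 percentile of the posterior ones. Hif1a stayed within 64.6 to 80.8 in the anterior and 61.5 to 74.2 in the posterior libraries.

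**Figure D2:**
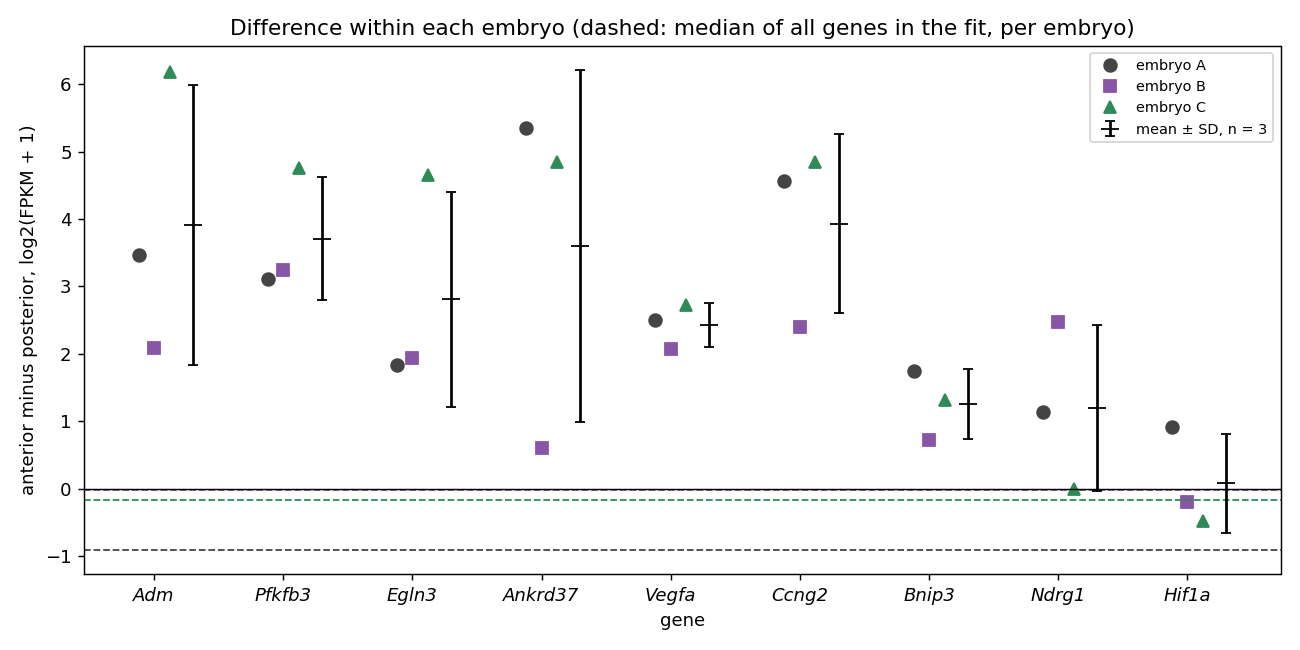
Anterior minus posterior difference in log2(FPKM + 1) of each gene in embryos A, B and C (points), with the mean ± SD of 3 embryos in black and the median of all fitted genes of each embryo as dashed lines in the embryo's colour. All 24 points of the 8 induced genes lie at or above 0, Ndrg1 in embryo C lies at 0.00, and Hif1a straddles 0.

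The embryos differed in the size of the change. The median difference of the 8 genes was 2.81, 2.08 and 4.70 for embryos A, B and C. Embryo C gave the largest difference for 5 of the 8 genes, and embryo B the smallest for 5. The posterior libraries carried most of this: posterior C held the lowest posterior level of 6 genes, ties at 0 included, and listed 3 of them at 0, whereas posterior B held the highest posterior level of 5. Posterior B was also the deepest library. Within the anterior group the 8 genes varied less, with a median SD of 0.48 against 1.25 in the posterior group, and all 8 had the smaller SD in the anterior group. Over all genes the order was the opposite, with median SDs of 1.14 in the anterior and 0.76 in the posterior group, and 33.2% of genes had the smaller SD in the anterior group. The choice of the 8 genes used these same values, and several have posterior levels at 0 or near it. Their order of SDs is therefore not separate from that choice.

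Embryos were also compared as a term of the fit, a contrast that did not choose the genes. It concerns levels over both pieces of an embryo, not the size of the anterior minus posterior change. In limma's F test among embryos none of the 9 genes reached an unadjusted p of 0.05 (smallest 0.219, adjusted p 0.996 to 0.998). Only 302 of the 10914 fitted genes did, so the lack of calls does not set these 9 genes apart. No gene of the table passed after adjustment (0% of genes, smallest adjusted p 0.102). A p above the threshold does not show that embryos had equal levels.

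The other genes of the pathway were taken from lists that leave these 9 genes out. The lists too were chosen with earlier results of these data known, so their counts are a description. Of the subunits, oxygen sensors and regulators of HIF, 16 were in the fit. Of these 1 was higher and 4 were lower in the anterior piece in 3 of 3 embryos, where 8.25% and 21.5% of all genes were, and the list median was -0.19. With each library centred on its median gene, 3 (18.8%) were higher and 2 (12.5%) lower in 3 of 3 embryos. These shares were near the 17.1% and 13.4% of all genes on that scale. The list median turned to 0.29, beside 0.06 for all genes. The 1 gene higher as deposited was Cited2, which competes with HIF-1α for its coactivators and is itself HIF-induced. It stood at 91.1, 232 and 119 FPKM in the anterior (A, B, C) and at 26.5, 57.4 and 20.4 FPKM in the posterior pieces, so the groups did not overlap. Its difference was 2.07 ± 0.38 (SD, n = 3; SE 0.68), with a limma unadjusted p of 0.0126 and an adjusted p of 0.551.

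Among the remaining HIF regulators the 2 with the next smallest p were lower in the anterior pieces in every embryo. Siah1a, a ubiquitin ligase, differed by -1.91 ± 0.41 (SD, n = 3; limma unadjusted p 0.0350, adjusted p 0.608). Rbx1, a subunit of the VHL ligase complex, differed by -1.43 ± 0.92 (unadjusted p 0.0682, adjusted p 0.625). Epas1, which encodes HIF-2α, was split by embryo, at 29.3, 69.7 and 0 FPKM in the anterior (A, B, C) and 5.27, 6.92 and 3.33 FPKM in the posterior pieces. The hydroxylase genes Egln1 and Egln2 did not share the pattern of Egln3, with differences of 0.69 ± 1.17 and 0.36 ± 1.85, and the partner subunit Arnt differed by -0.69 ± 2.40 (SD, n = 3 for each). These last 4 genes were named after their values were seen.

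Of the HIF targets outside the 8 genes, 47 were in the fit, and 10 of them (21.3%) were higher in the anterior piece in 3 of 3 embryos, against 8.25% of all genes. The opposite held for 3. Since this list was chosen with earlier results of these data known, its share is not separate support. The list median was 0.44, and its medians by embryo were -0.12, 1.03 and 0.24, beside -0.91, -0.02 and -0.17 for all genes. None was higher in the anterior pieces at an unadjusted p under 0.05 in limma, where 0.788% of all genes (86) were, and 1 was lower, where 7.24% (790) were. That gene was Igfbp3, an IGF-binding protein gene, at 0.151, 0 and 28.2 FPKM in the anterior (A, B, C) and 64.0, 67.2 and 56.4 FPKM in the posterior pieces. None passed after adjustment.

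The count for these targets, which carries the same limit, changed with the scale. With each library centred on its median gene, 9 of the 47 were higher in the anterior pieces at an unadjusted p under 0.05, where 2.72% of all genes were, and 19 (40.4%) were higher in 3 of 3 embryos, where 17.1% of all genes were. Over all genes the split of higher to lower calls was 86 to 790 as deposited, 297 to 429 after centring and 315 to 513 after quantile normalization. Under centring the 9 were Plod2, Anxa2, Jmjd6, Kdm4c, Ddit4, Gys1, Hilpda, Pgf and Ak4, named because they made up this count. Hilpda and Pgf were not higher in all 3 embryos as deposited.

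The 10 targets higher in every embryo, named after their values were seen, cover several arms of the response. Collagen-modifying enzymes were among them. Plod2, a collagen lysyl hydroxylase, stood at 87.5, 216 and 189 FPKM in the anterior (A, B, C) and at 26.1, 64.0 and 107 FPKM in the posterior pieces, a difference of 1.42 ± 0.53 (SD, n = 3). P4ha1, a collagen prolyl hydroxylase, differed by 1.06 ± 1.11. Posterior C lay above anterior A for both Plod2 and P4ha1, so the groups overlapped. Other collagen-modifying genes among the 47 targets were not higher in every embryo. P4ha2 (0.96 ± 1.22), Plod1 (-0.28 ± 2.92) and Loxl2 (0.52 ± 1.48; SD, n = 3 for each) were each lower in the anterior piece of embryo C.

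Metabolic and chromatin genes were also on that list of 10. Gys1, the glycogen synthase of most tissues, was measured at 21.5, 10.4 and 18.0 FPKM in the anterior and 1.55, 3.90 and 3.81 FPKM in the posterior pieces of A, B and C, without overlap. Kdm4c and Jmjd6, which encode JmjC-domain oxygenases, differed by 2.25 ± 1.52 and 1.71 ± 0.98. Jmjd6 was even among anterior pieces (61.7, 62.8 and 62.3 FPKM) and lay at 40.7, 11.0 and 13.4 FPKM in the posterior ones. Ddit4, an inhibitor of mTORC1 signalling, differed by 1.81 ± 1.33, Anxa2 by 1.20 ± 0.79 and Angpt2, a vessel regulator, by 1.08 ± 0.47. The lactate exporter Slc16a3 differed by 0.93 ± 0.41 and the adenylate kinase Ak4 by 1.64 ± 1.49 (SD, n = 3 for each). Other metabolic and chromatin genes among the HIF targets were not higher in every embryo. Those given here were named after their values were seen. Kdm3a (0.68 ± 1.36), Gbe1 (-0.03 ± 1.57), Slc2a1 (0.44 ± 0.69) and Slc2a3 (0.24 ± 0.28) were lower in the anterior piece of embryo A. Pdk1 (0.76 ± 1.41) was lower there in embryo B and Kdm4b (0.74 ± 2.07) in C (SD, n = 3 for each). The lower values were small for Slc2a1 (-0.20), Slc2a3 (-0.04) and Pdk1 (-0.17).

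The glycolytic enzymes, a common group of HIF targets, had a median difference far below the value of Pfkfb3. Of 17 in the fit, 5 were higher and 2 lower in the anterior piece in 3 of 3 embryos, where 8.25% and 21.5% of all genes were, and the list median was 0.16 (-0.69, 0.80 and 0.32 by embryo). After centring on the library median 11 of the 17 (64.7%) were higher in 3 of 3 embryos, where 17.1% of all genes were, and the median was 0.65. None was higher at an unadjusted limma p under 0.05 on either scale, and Eno3, the muscle enolase, was lower by -3.18 ± 0.62 (SD, n = 3; unadjusted p 0.00884, adjusted p 0.550). Pfkp, a phosphofructokinase, differed by 1.30 ± 1.54 and Aldoc by -1.26 ± 0.83.

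**Figure D3:**
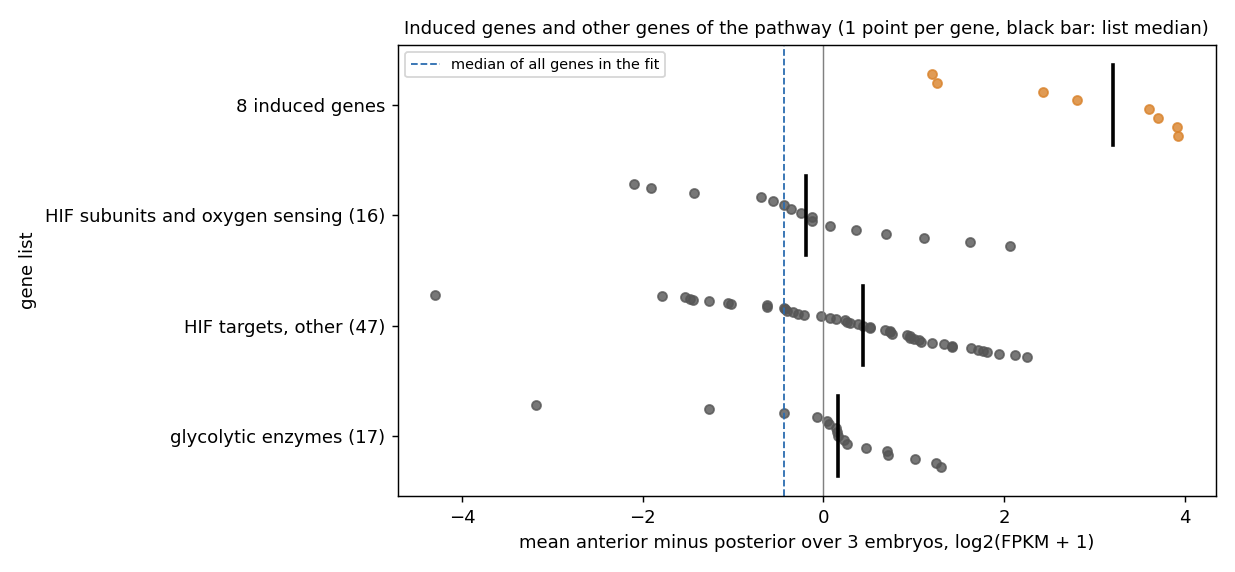
Mean anterior minus posterior difference over 3 embryos in log2(FPKM + 1) on the horizontal axis, 1 point per gene, for the 8 induced genes and 3 pathway lists that exclude them, with the number of fitted genes in brackets, the list medians as black bars and the median of all genes as a dashed line. The medians lie at 3.20, -0.19, 0.44 and 0.16, and the median of all genes lies at -0.43.

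Close relatives of the 8 genes did not show their pattern. Of the PFKFB isoenzymes, Pfkfb1 differed by -0.45 ± 0.96 and Pfkfb2 by 0.39 ± 1.64, and neither was higher in all 3 embryos. Ndrg2, Ndrg3 and Ndrg4 differed by -0.08 ± 4.31, -1.03 ± 0.55 and -1.53 ± 2.27. Ccng1, the other cyclin G gene, differed by 0.30 ± 0.83. Bnip3l, the paralog of Bnip3 and likewise a HIF target, differed by -0.42 ± 0.94 (SD, n = 3 for each). The difference between a gene and its relative was not tested.

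Receptors for the 2 secreted products differed from library to library. The adrenomedullin receptor Calcrl was between 0.0747 and 2.46 FPKM in the anterior and between 0 and 4.47 FPKM in the posterior pieces. Its partner Ramp2 was listed at 0 in anterior A and C and stood at 18.4 FPKM in anterior B, and the posterior pieces held 23.0, 2.89 and 1.63 FPKM. The VEGF receptor Kdr was listed at 0 in all 3 anterior pieces and reached 4.01 FPKM at most in the posterior ones. Flt1, a second VEGF receptor and itself a HIF target, stood at 29.1 and 32.6 FPKM in anterior A and B and was listed at 0 in anterior C, against 3.30, 4.60 and 23.7 FPKM in the posterior pieces. Of the other ligands, Vegfb differed by 0.21 ± 2.03, and Pgf by 1.77 ± 1.74 with 0 in both pieces of embryo C. Nrp2, a VEGF co-receptor, differed by 0.36 ± 2.77 (SD, n = 3 for each).

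Lists of neighbouring stress responses were mixed, and their counts stand beside 8.25% of all genes higher and 21.5% lower in 3 of 3 embryos and an all-gene median of -0.43. Of 17 fitted genes of the FoxO and cyclin G list, 4 were higher and 2 lower in the anterior piece in 3 of 3 embryos (median 0.30). Its 3 leading genes by p were Sgk1 (-3.28 ± 2.33), the shared member Cited2 and Sesn3 (1.81 ± 1.42). Of 20 genes of the ATF4 and unfolded protein response list, 3 were higher and 4 lower in 3 of 3 embryos (median -0.47), which is near those values for all genes. There Ddit3 was at 43.4, 46.0 and 55.7 FPKM in the anterior (A, B, C) and at 2.56, 5.24 and 39.2 FPKM in the posterior pieces, while the serine synthesis enzyme Phgdh and the amino acid transporter Slc7a5 ran lower by -2.97 ± 2.35 and -2.69 ± 1.86. Of 16 mitophagy genes beside Bnip3, 1 was higher and 2 lower in 3 of 3 embryos (median -0.60). The 1 higher was the autophagy kinase gene Ulk2, at 104, 35.4 and 118 FPKM in the anterior and 4.85, 14.7 and 0.696 FPKM in the posterior pieces, and Phb2 and Gabarapl2 differed by -1.60 ± 0.85 and -1.08 ± 1.38 (SD, n = 3 for each). After centring, where the all-gene median was 0.06, the medians of the FoxO, ATF4 and mitophagy lists were 0.79, 0.01 and -0.11. No gene of these lists passed after adjustment.

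Summed endoderm markers did not differ between the pieces in the same direction in all 3 embryos. Of 22 fitted visceral endoderm markers 1 (Lrp2) was higher and 4 lower in the anterior piece in 3 of 3 embryos. Over all genes the shares were 8.25% and 21.5%. The 4 were Apom, Spink3, Dkk1 and Lhx1, named with Lrp2 because they made up these counts. Of 23 fitted parietal endoderm and XEN markers 0 were higher and 1 (Fst) was lower. Summed over 24 visceral endoderm markers in the table, the anterior pieces held 1480, 1830 and 149 FPKM in A, B and C and the posterior pieces 1040, 3770 and 1040 FPKM. The most abundant marker, Spink3, made up most of the posterior sums, at 486, 304 and 11.1 FPKM in the anterior and 753, 3280 and 634 FPKM in the posterior pieces. Without it the sums were 993, 1530 and 138 FPKM against 282, 492 and 403 FPKM, higher in the anterior piece of A and B and lower in that of C. In anterior C only 7 of the 24 were above 0, and the next most abundant markers, Rbp4 and Cited1, were listed at 0. Summed over 23 markers of parietal endoderm and XEN cells, led by Sparc, Col4a1 and Krt18, the anterior pieces held 1960, 2860 and 674 FPKM and the posterior pieces 914, 921 and 1750 FPKM. Both endoderm sums were thus lower, with or without Spink3, in the anterior piece of embryo C. A link between endoderm content and the differences of the induced genes was not tested.

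Epiblast markers, which define the embryonic compartment, ran lower in the anterior pieces. Their sum over 22 genes was 383, 865 and 1930 FPKM in anterior A, B and C against 2240, 1110 and 1950 FPKM in the posterior pieces. Of 21 fitted markers 10 were lower and 1 higher in 3 of 3 embryos, where 21.5% and 8.25% of all genes were. Relative to the median gene of each library, their mean was -0.38, -0.38 and 1.00 for anterior A, B and C, against 1.85, 1.27 and 1.58 for the posterior pieces. It thus separated the groups as the induced genes did, in the opposite direction. The pluripotency gene Pou5f1, named as a defining marker, stood at 2.16, 0.919 and 11.5 FPKM in the anterior pieces and at 33.6, 4.89 and 19.7 FPKM in the posterior ones. Of the most abundant markers, Epcam was at 124 to 152 FPKM in the anterior and 36.8 to 138 FPKM in the posterior pieces, and Sall4 at 96.0 to 1170 and 287 to 977 FPKM. Streak and mesoderm markers, expressed together with the reporter gene that told the pieces apart, summed to 9.17 to 50.7 FPKM in the anterior (42.5 of the 50.7 FPKM of anterior C being T) and 315 to 373 FPKM in the posterior pieces. Trophoblast markers summed to 317 to 505 FPKM and 366 to 765 FPKM, with Krt18, Krt8 and Rhox5 the most abundant by mean. Krt8 and Krt18 are also on the parietal endoderm and XEN list. Of 16 fitted trophoblast markers 2 (Gata3 and Hand1) were higher and 3 lower in 3 of 3 embryos. The 3 lower, named because they made up this count, were Eomes (-4.41 ± 1.69), Tfap2c (-4.0 ± 0.9) and Esrrb (-2.21 ± 0.81; SD, n = 3 for each). Elf5, named as a defining trophoblast marker, was at 0 in all anterior pieces and at 0.482, 8.08 and 0 FPKM in the posterior ones. Endothelial and blood markers summed to 35.9 to 61.3 FPKM in the anterior and 34.6 to 44.4 FPKM in the posterior pieces. Of 5 fitted, Egfl7 (29.8, 26.4 and 25.8 against 24.3, 16.3 and 9.65 FPKM) and Runx1 were higher in the anterior piece in 3 of 3 embryos, Runx1 by only 0.01 in embryo C. Kdr was lower in 3 of 3 embryos (-1.48 ± 1.10). Pecam1 (-1.26 ± 2.17) and Gata2 (0.57 ± 1.48) changed direction between embryos (SD, n = 3 for each). All 5 are named here, and so few genes cannot be set against the shares of all genes. Cdh5, named as a defining endothelial marker, was at most 1.49 FPKM in any library. The part of cell type makeup in the differences of the induced genes was not tested.

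**Figure D4:**
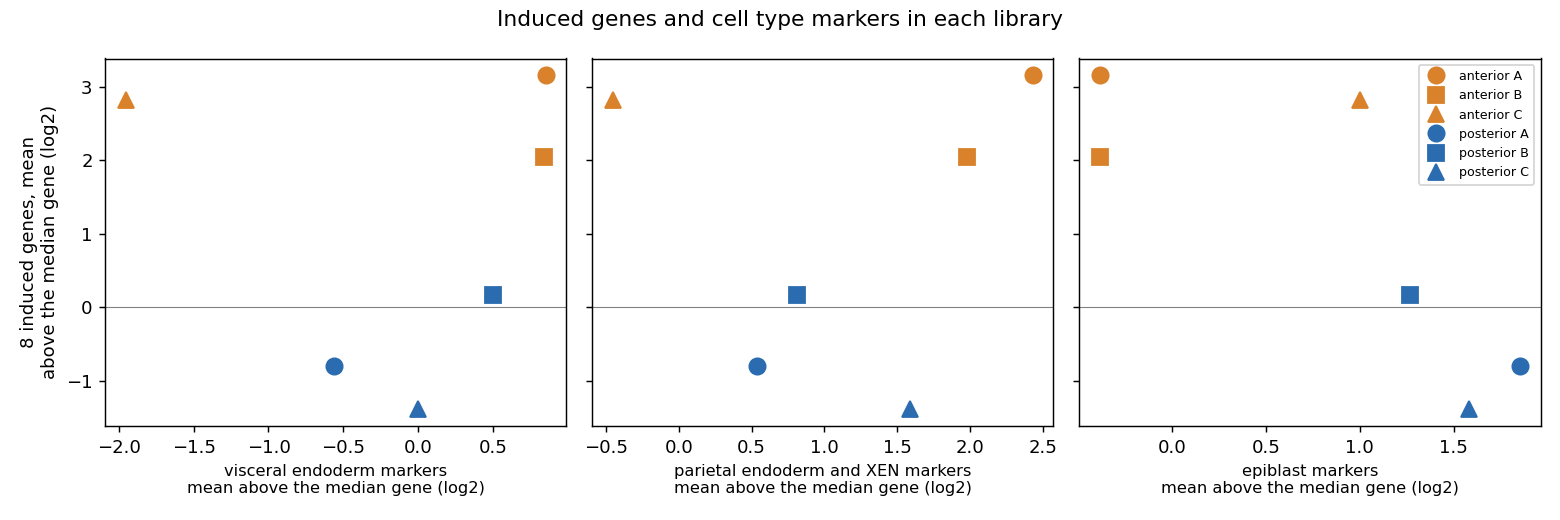
Mean level of the 8 induced genes above the median gene of the library (vertical axis, log2) against the mean level of fitted visceral endoderm, parietal endoderm and XEN, and epiblast markers above the same median gene (horizontal axes, log2), 1 point per library. The 3 anterior libraries lie at 2.04 to 3.16 and the 3 posterior ones at -1.39 to 0.17 on the vertical axis, and anterior C has the lowest endoderm values (-1.95 and -0.45).

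The genes whose pattern was most like that of the 8 were sought by Pearson correlation over the 6 libraries, which come in pairs from 3 embryos. Each gene was centred on the library median and set against the mean of the 8 standardised genes. The 8 closest were Ap1ar, Rsrc2, Scamp1, 2810403A07Rik, Ankrd12, Zscan29, Pigm and Ikzf2, with r between 0.982 and 0.998. Their anterior minus posterior differences were smaller than those of most of the 8, from 0.63 for Rsrc2 to 2.01 for Ankrd12. Ankrd12, for instance, stood at 4.36, 4.64 and 4.08 in log2(FPKM + 1) in the anterior (A, B, C) and at 2.37, 2.74 and 1.93 in the posterior pieces. Of the genes that make up the profile, Vegfa lay closest to it (r = 0.998), followed by Pfkfb3 (0.978), Ccng2 (0.959), Egln3 (0.956), Ankrd37 (0.941), Adm (0.905), Bnip3 (0.899) and Ndrg1 (0.629). Hif1a, which is not part of it, had r = 0.617. These correlations describe 6 libraries that differ mainly by group, and they carry no test.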

How the data were processed

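The authors deposited 1 table of log2(FPKM + 1) values for 12826 genes in 6 libraries; the scale was read from the values, since raising 2 to the value and subtracting 1 gave at most 6 significant digits for 99.1% to 99.5% of entries above 3. Per the labels' protocols, reads were mapped to the mouse genome and HTSeq-count was used for counting; TopHat2 2.0.4, Cufflinks 2.0.2 and mm10 are named in the submitters' processing notes. No source used here gives any further normalization. Absolute depth is unknown; relative depth came from the steps on which values under 1 FPKM fall (6.68% to 13.9% of such genes share the commonest step with anterior A). Genes that averaged 1 FPKM or more entered limma 3.58.1 (R 4.3.3), blocked by embryo, its prior following a mean-variance trend; tests were two-sided, Benjamini-Hochberg threshold 0.05 (2 residual and 7.5 prior degrees of freedom). The fit was tested on simulated data. The pieces are paired by dissection; their deviations from group means correlated at -0.07, 0.04 and -0.03. Each embryo gave 1 anterior and 1 posterior piece, so the replicate is the embryo (n = 3). Gene coordinates are from GENCODE M21 and promoter sequences from RefSeq, both GRCm38, the build that mm10 names. The genes and lists were chosen with earlier results of these data known. Named were the 9 genes, their relatives, up to 3 genes per list with the smallest p (cell type markers: up to 3 with the highest mean, with others for which the text says so), and the 8 most correlated genes. Alternatives were the pseudocount (0.1, 10), the filter (none, 5 FPKM), centring, quantile normalization, no block, no trend and leaving out each embryo; leaving out anterior A or anterior C alone was added after seeing the data.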

Additional observations from a re-analysis of the deposited data

How the results depend on the processing

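The differences of the 8 induced genes kept their direction under all 13 alternatives (104 of 104 values), and 98 of these moved by less than the SD over embryos. Most of these settings could not have reversed a direction. Every within-embryo difference of the 8 was above 0, so another pseudocount or leaving out an embryo keeps the sign. The filter, block and trend settings leave the difference unchanged. The kept directions thus restate the choice of genes. Their median, 3.20, ranged from 1.54 (pseudocount 10) to 3.87. Without the replicate block the median stayed at 3.20, since each embryo gave both pieces and the block then leaves every mean difference as it is. The mean of Hif1a ranged from -0.33 (without A) to 0.35 (without C) with single embryos left out, and turned to -0.14 with no replicate block and without anterior A alone. The median of all genes turned to 0.06 after centring and after quantile normalization. Genes higher in the anterior pieces at an unadjusted p under 0.05 numbered 86, against 297 after centring, 315 after quantile normalization, 36 to 140 with single embryos left out (36 without B, 140 without C), and, with no replicate block, 191 without anterior A and 232 without anterior C. Genes lower there numbered 790, against 429, 513 and, with single embryos left out, 348 (without A) to 898 (without C). No gene passed adjustment except 1 (Mir682) without anterior C alone and with no block. The other HIF targets higher at an unadjusted p under 0.05 numbered 0, against 1 with a pseudocount of 0.1 or of 10, 9 after centring or quantile normalization, 5 with no replicate block, 2 with no trend, 0 to 4 with single embryos left out (4 without A, 2 without C), and, with no block, 6 without anterior A and 2 without anterior C. Their median of 0.44 became 1.05 after quantile normalization, 0.93 after centring, and 0.28 without embryo C or with a pseudocount of 10. Genes that differed among embryos after adjustment numbered 0, against 3 with no filter, 3 after centring, 3 after quantile normalization and 0 to 4 with single embryos left out (4 without A). The causes of these shifts were not tested. With 3 embryos and unknown absolute depth, an exact 0 cannot be told from a low level.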
